A study of Mus musculus with 36 samples.

Results

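The sarcomeric myosin chains of the mouse heart were followed from mid-gestation to old age. The set was named by gene symbol and held 8 genes, the heavy chains Myh6, Myh7 and Myh7b and the light chains Myl1, Myl2, Myl3, Myl4 and Myl7. Of these, 7 genes were named in the deposited annotation of the array, at 10 of 45101 probe sets. Myh6 was not analysed here, because no row carried its symbol or gene ID, so the ratio of beta to alpha heavy chain was not formed. The annotation leaves 6937 rows without a gene ID, and whether any of them measures Myh6 was not examined. Poly(A) RNA of whole OF1 mouse hearts was hybridized to 36 Affymetrix mouse genome arrays. They covered 12 stages with 3 arrays each, each day of gestation between E10.5 and E19.5 (10 stages), and adults that were young (10 weeks) or old, whose age is 14 months in the labels and 10 months in the methods. From E12.5 on, each stage had 1 female, 1 male and 1 mixed-sex sample, and all samples at E10.5 and E11.5 were of mixed sex. The labels and the methods name no transgene, mutation or treatment. The samples are tissue homogenates with atria and ventricles together, so fewer cells of a type and less RNA per cell cannot be told apart.

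Myosin is the motor of the sarcomere, built from a pair of heavy chains, each of which carries an essential and a regulatory light chain. In rodents, the ventricle uses mainly the beta heavy chain (Myh7) before birth and the alpha heavy chain (Myh6) afterwards. Among the light chains, Myl2 (regulatory) and Myl3 (essential) are the ventricular forms, and Myl7 (regulatory) and Myl4 (essential) become the atrial forms, although both are also present in the early embryonic ventricle. Myl1 encodes the essential light chains of fast skeletal muscle. Myh7b is a slow heavy chain gene that is best known as the host of a microRNA.

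Sequences are shown first for Myh7, for Myl7, Myl4 and Myl1, which were lower at E19.5 than at E10.5, and for Myl3, which stands in 2 of the 3 differences between chains that are tested here. Each line gives the 250 bases before an annotated start site, taken from the RefSeq table of build GRCm38.p6, 5′ to 3′ on the strand of the gene. Capitals mark matches on either strand to the TATA-type letters TATAAA, the M-CAT core CATTCC, the GATA-type letters GATAA, the CArG box or the MEF2 motif. The matches do not overlap each other in the windows shown. For Myh7, which has 2 listed start sites, the upstream one is shown.
Myh7 (chr14:54994627-54994876, minus strand): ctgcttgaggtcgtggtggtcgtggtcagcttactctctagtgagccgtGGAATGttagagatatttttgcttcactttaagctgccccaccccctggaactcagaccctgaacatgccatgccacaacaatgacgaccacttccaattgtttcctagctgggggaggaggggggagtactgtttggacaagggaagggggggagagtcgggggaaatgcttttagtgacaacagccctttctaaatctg
Myl7 (chr11:5898783-5899032, minus strand): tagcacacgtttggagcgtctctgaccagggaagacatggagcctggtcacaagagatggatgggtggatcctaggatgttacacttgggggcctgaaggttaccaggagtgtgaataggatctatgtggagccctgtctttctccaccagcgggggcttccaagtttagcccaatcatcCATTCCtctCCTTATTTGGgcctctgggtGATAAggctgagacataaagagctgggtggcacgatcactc
Myl4 (chr11:104550413-104550662, plus strand): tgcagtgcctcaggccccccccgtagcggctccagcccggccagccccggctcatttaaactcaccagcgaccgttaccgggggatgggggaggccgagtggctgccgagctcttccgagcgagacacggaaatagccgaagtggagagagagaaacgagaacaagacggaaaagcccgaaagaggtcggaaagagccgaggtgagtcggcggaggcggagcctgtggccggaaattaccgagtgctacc
Myl3 (chr9:110763428-110763677, plus strand): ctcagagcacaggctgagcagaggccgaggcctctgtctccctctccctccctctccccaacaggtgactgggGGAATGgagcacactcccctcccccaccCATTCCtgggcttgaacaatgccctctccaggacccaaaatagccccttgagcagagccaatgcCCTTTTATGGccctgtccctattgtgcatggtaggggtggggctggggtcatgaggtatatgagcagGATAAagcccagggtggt
Myl1 (chr1:66945057-66945306, minus strand): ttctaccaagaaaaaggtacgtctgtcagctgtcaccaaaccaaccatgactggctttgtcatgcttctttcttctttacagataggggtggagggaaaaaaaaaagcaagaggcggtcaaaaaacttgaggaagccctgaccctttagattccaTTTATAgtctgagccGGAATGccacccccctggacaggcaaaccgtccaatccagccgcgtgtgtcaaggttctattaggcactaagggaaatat

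The CArG box, a serum response factor motif, lay in the windows of Myl7 and Myl3, 2 of the 9 windows of the 7 genes, and in 1.47% of all 32851 promoter windows of this length. CATTCC lay in 4 of the 9 windows, those of Myh7 (upstream start), Myl1, Myl3 and Myl7, and in 12.6% of all windows. GATAA lay in 4 of the 9 and in 22.6% of all, TATAAA in 2 of the 9 and in 12.4% of all, and the MEF2 motif in 0 of the 9 and in 2.92% of all. The Myl4 window held none of these letters. Myl7 and Myl3, which share the CArG box, had different courses over the stages, as described in the following paragraphs. These matches are descriptions of sequence and not evidence of binding.

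The 2 heavy chain genes also carry microRNAs within their spans, Mir208b in Myh7 and Mir499 in Myh7b, each on the strand of its host. Their mature forms are shown with the seed, bases 2 to 8, in capitals.
miR-208b-3p (chr14:54975710-54975731, minus strand): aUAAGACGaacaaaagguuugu
miR-499-5p (chr2:155622893-155622913, plus strand): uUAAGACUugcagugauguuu
The seeds share 6 of 7 bases. Levels of these microRNAs were not analysed here, so the host gene values speak only for the myosin transcripts.

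Myh7, the beta heavy chain, was among the brightest signals of the embryonic heart and was lower in young adults. On the log2 scale the E10.5 arrays read 13.34, 13.35 and 13.35, and the E19.5 arrays read 13.52 in the female, 13.46 in the male and 12.89 in the mixed sample. The young adult arrays read 11.05, 12.11 and 11.39, in the same order, and the old adult arrays 11.70, 13.40 and 12.57. All embryonic arrays lay above all young adult arrays, whereas the old adult male array reached the embryonic range. Between E12.5 and E18.5 Myh7 was 2.01 to 2.23 log2 units above young adults (SE 0.24, n = 3 per stage). At E10.5, E11.5 and E19.5 the difference was 1.78 to 1.95.

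**Figure D1:**
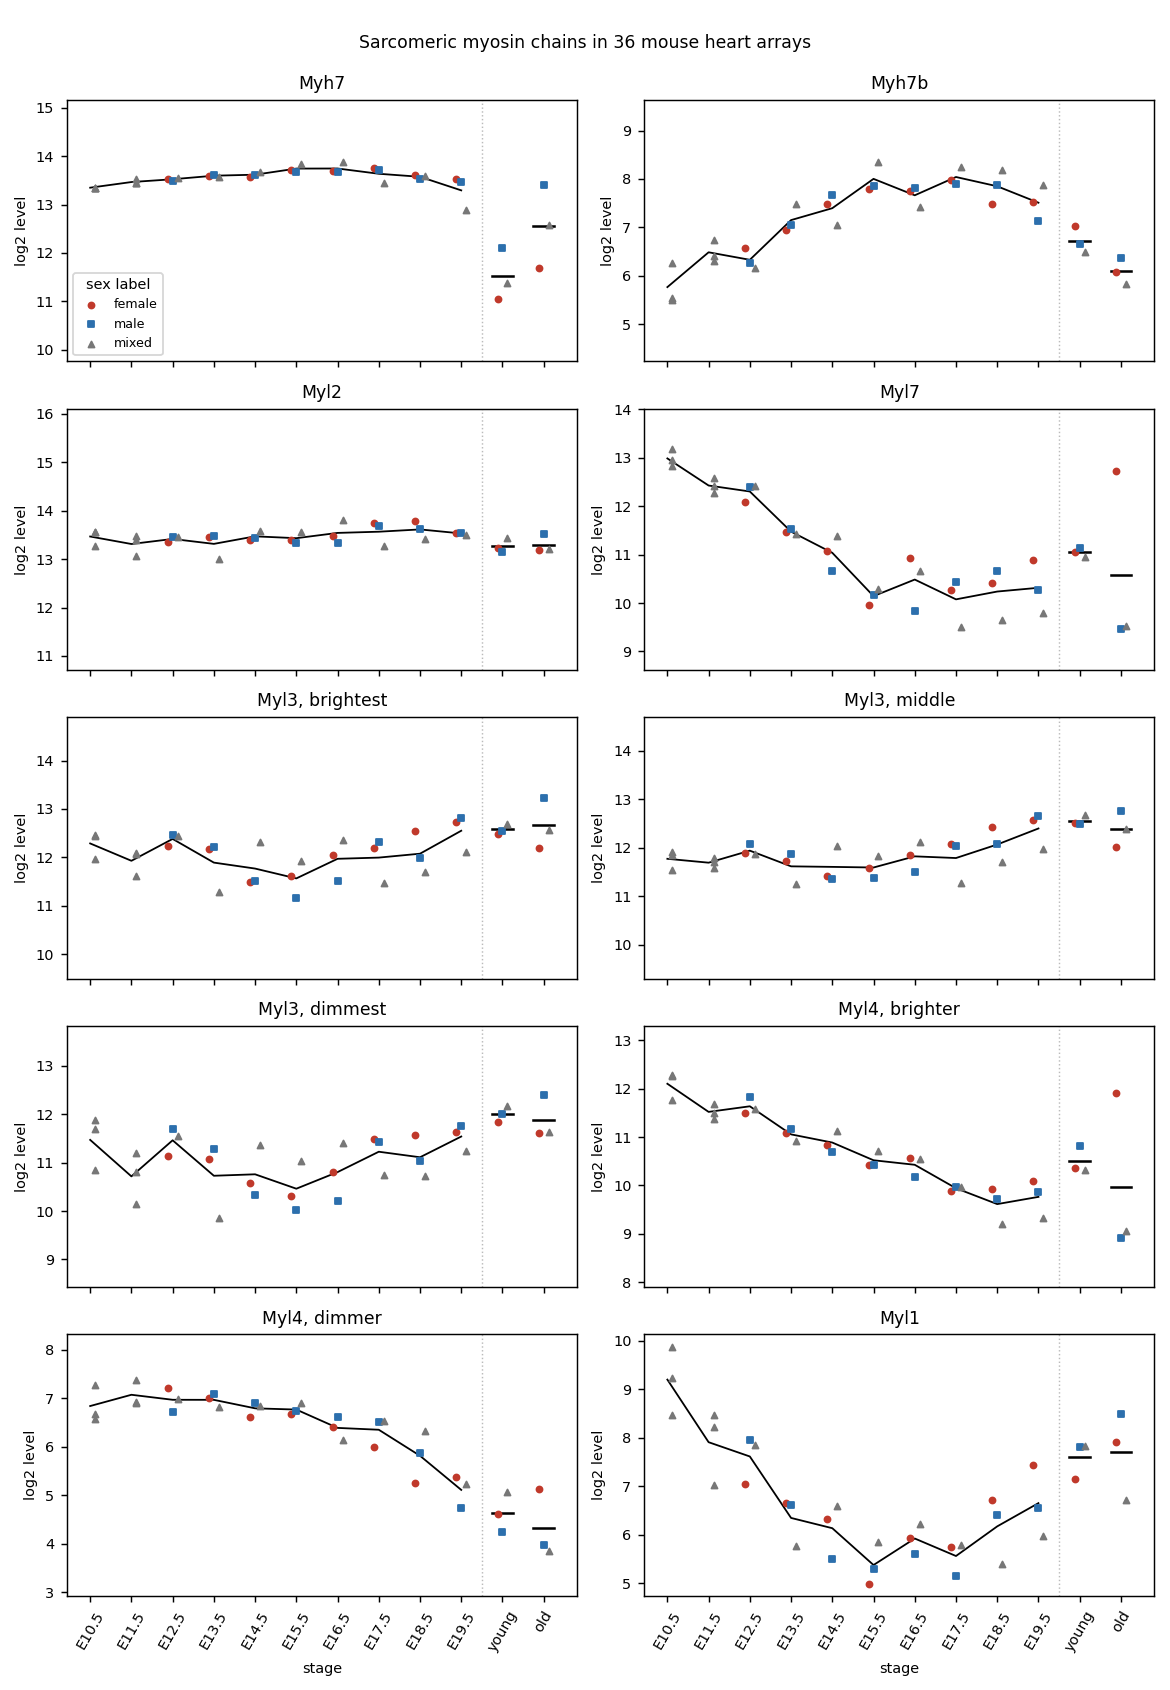
Log2 level (y axis) of each of the 10 myosin probe sets at 12 stages (x axis), 1 point per array coloured by sex label, with lines for the embryonic stage means and bars for the adult means; all panels have the same span, and levels may be compared within a panel only. Myl7, Myl4 and Myl1 fell from E10.5, Myh7b was highest at E15.5 to E18.5, and Myl2 stayed within 13.00 and 13.81 on all arrays.

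The spread of Myh7 was not even across stages. Its SD was 0.003 at E10.5 and between 0.02 and 0.18 from E11.5 to E18.5, against 0.35 at E19.5, 0.54 in young adults and 0.85 in old adults. On 27 of the 36 arrays fewer than 10 probe sets were brighter than Myh7, and on at least 1 array none was. Whether the top of the scanner's range bounded these embryonic values was not tested. Ranked by mean, Myh7 ran from E16.5 through E15.5, E17.5, E14.5, E13.5, E18.5, E12.5, E11.5, E10.5 and E19.5 to old and young adults. Neighbours in this order overlapped in 10 of 11 cases, the exception being E11.5 over E10.5.

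Myh7b had a different course, with a mid- to late-gestation peak. Its arrays read 5.51, 5.54 and 6.26 at E10.5, then 7.98, 7.90 and 8.24 (female, male, mixed) at E17.5, its highest stage. At E19.5 they read 7.52, 7.13 and 7.87, in young adults 7.03, 6.66 and 6.48, and in old adults 6.07, 6.36 and 5.84. The E10.5 arrays lay below all arrays of E17.5 and of E19.5. Against E19.5, Myh7b was lower at E10.5 by 1.74 log2 units (SE 0.23, adjusted p = 2.57e-07), a fold of 3.35. Against young adults it was lower at E10.5 (log2 fold change -0.96, adjusted p = 0.000574) and higher at E17.5 (1.32, adjusted p = 1.85e-05). With the hybridization control level as a covariate, the E10.5 difference from young adults turned to 0.17 (adjusted p = 0.82), whereas that from E19.5 was -1.12 (adjusted p = 0.00208). All 11 neighbours in its order of stage means overlapped.

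The atrial regulatory light chain Myl7 fell early. Its E10.5 arrays read 13.17, 12.95 and 12.83, and its E13.5 arrays lay between 11.42 and 11.53. By E17.5, its lowest stage, the female, male and mixed arrays read 10.28, 10.44 and 9.51, and at E19.5 10.89, 10.27 and 9.79. No array from E13.5 to E19.5 reached the range of E10.5 to E12.5. The E10.5 mean was 2.67 log2 units above that of E19.5 (SE 0.47, adjusted p = 2.82e-05), a fold of 6.37. In its order of stage means, E10.5 stood clear of E11.5, E12.5 of E13.5, and E13.5 of young adults, while the other 8 of 11 neighbours overlapped. Young adults, at 11.06, 11.13 and 10.94, lay above all 3 arrays of E17.5, E18.5 and E19.5, but the difference from E19.5 did not pass the test (log2 fold change E19.5 against young adult -0.73, SE 0.47, adjusted p = 0.261). This SE is shared by all 12 stages and includes the spread of the old adult arrays (SD 1.87, against a median stage SD of 0.28).

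Myl4, the atrial essential light chain, fell more steadily. On the brighter of its 2 probe sets, which is meant wherever no other is named, the E10.5 arrays read 12.25, 12.28 and 11.77. The E17.5 arrays read 9.88, 9.98 and 9.97, and the E19.5 arrays 10.09, 9.86 and 9.34, again in the order female, male, mixed. None of these E17.5 and E19.5 values came within 1 log2 unit of the E10.5 range. The E10.5 mean exceeded that of E19.5 by 2.34 log2 units (SE 0.40, adjusted p = 1.88e-05). The dimmer probe set held 6.57, 6.67 and 7.29 at E10.5 and stayed near this level to E15.5, then fell to 5.37, 4.74 and 5.22 at E19.5. Its difference between E10.5 and E19.5 was 1.73 (SE 0.27, adjusted p = 5.7e-06).

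The 2 Myl4 probe sets parted in the adult. The brighter one was lower at E19.5 than in young adults, where it read 10.36, 10.81 and 10.33 (log2 fold change -0.74, adjusted p = 0.174). The dimmer one was higher at E19.5 than in young adults, where it read 4.61, 4.23 and 5.08 (0.47, adjusted p = 0.204). Neither difference passed the test. Over the 12 stage means Pearson's r between them was 0.65, as a description, since both come from the same arrays. A level of Myl4 in the adult relative to late gestation therefore depends on the probe set read.

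Myl1 was highest at E10.5 and lowest at E15.5. Its arrays read 9.88, 9.24 and 8.48 at E10.5 and 4.98, 5.28 and 5.85 (female, male, mixed) at E15.5, and rose to 7.44, 6.55 and 5.96 at E19.5. Young adults read 7.14, 7.81 and 7.82, and old adults 7.91, 8.49 and 6.71. Only E10.5 stood clear of the next lower stage, E11.5, in its order of stage means, and the other 10 of 11 neighbours overlapped. From E10.5 to E19.5 the difference was 2.55 log2 units (SE 0.44, adjusted p = 2.35e-05), a fold of 5.85. With the hybridization control level as a covariate it was 1.22 (adjusted p = 0.0863). Markers of skeletal muscle were low, with list means over 8 genes between 3.75 and 5.00 on all arrays, and highest among young adults. Mylpf, the regulatory light chain of fast skeletal muscle and itself 1 of these 8 genes, averaged 7.16 at E10.5 against 5.55 in young adults (limma, adjusted p = 4.38e-08). At E19.5 it averaged 4.79, lower than in young adults (limma, adjusted p = 0.00397). The list as a whole ran the other way at E10.5, with means of 4.16 to 4.35 against 4.50 to 5.00 in young adults. The part of skeletal muscle in the Myl1 values was not tested.

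Of the ventricular light chains, Myl2 moved little and Myl3 was lower in mid-gestation than in young adults. Myl2 stayed between 13.00 and 13.81 on all 36 arrays, its stage means spanning 0.34 log2 units, and 1 to 23 probe sets were brighter than it on each array. At E10.5 Myl2 read 13.57, 13.57 and 13.27, and in young adults 13.23, 13.15 and 13.43, so the ranges overlapped. The fold change between them was 0.19 on the log2 scale (SE 0.15, adjusted p = 0.274). Whether the scanner's range bounded its values was not tested. Myl3 had 3 probe sets, all lowest at E15.5 and with their 3 highest stages among E19.5, young and old adults. The brightest averaged 12.29 ± 0.28 (E10.5), 11.57 ± 0.38 (E15.5), 12.55 ± 0.39 (E19.5) and 12.58 ± 0.10 (young adult; SD, n = 3 each). At E15.5 all 3 were lower than in young adults, by log2 fold changes of -1.01, -0.97 and -1.55 from the brightest to the dimmest (adjusted p = 0.00565, 0.000976 and 0.000762). At E14.5 all 3 were also lower at an adjusted p under 0.05. Their stage means spanned 1.10, 0.97 and 1.55 log2 units. Between E10.5 and E19.5 only 1 of its 3 probe sets, the middle one by brightness, passed, at -0.63 (adjusted p = 0.0278). The suffixes of 2 of the 3 mark probes that may also bind transcripts of other genes. All 11 neighbours in the orders of Myl2 and of each Myl3 probe set overlapped.

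The comparisons against a reference stage were read with the strict rule of the study's methods, which asks for a mean above 5 in some stage, a change of more than 2 log2 units either way and an adjusted p under 1e-05. Against young adults, 1 of the 10 myosin probe sets met it at E10.5, the dimmer of Myl4, where 6.53% of all probe sets did, and the same one at E11.5, where 5.39% did. At E12.5 it was joined by Myh7, and both met it on that day and at E13.5, E14.5 and E15.5, where the share of all probe sets was 5.12%, 4.44%, 4.17% and 4.03%. At E16.5, E17.5 and E18.5 Myh7 alone met it, against 3.46%, 2.72% and 2.46% of all. At E19.5 none of the 10 did, against 1.45%, and in old adults none, against 0.00665%. All 13 calls were of higher embryonic levels as deposited. They became 2 after centring each array on the median of its expressed probe sets, the dimmer Myl4 as higher at E11.5 and Myl1 as lower at E15.5 (log2 fold change -2.49), so Myh7 no longer met the rule. With the arrays of the 2 stages alone they became 1, the dimmer Myl4 at E15.5. With 10 members, 1 or 2 calls cannot be set apart from these shares.

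At the milder limit of an adjusted p under 0.05, 5 of the 10 probe sets were higher at E10.5 than in young adults and 2 were lower, against 27.1% and 35.9% of all probe sets. The higher ones were Myh7, both of Myl4, Myl7 and Myl1, and the lower ones were Myh7b and 1 of Myl3. The same centring lowered these fold changes by 0.53 log2 units, and the split became 5 higher and 5 lower. Another quantile normalization left it at 5 higher and 2 lower. As deposited, the median of all probe sets in this comparison was already below 0, at -0.19, and centring lowers it further. The share of all probe sets that passed after centring is not given here. At E19.5 only Myh7 (log2 fold change 1.78, SE 0.24, adjusted p = 7.76e-07) and Myh7b (0.79, SE 0.23, adjusted p = 0.00784) were higher than in young adults, and none was lower, against 15.5% and 13.6% of all. After centring, 1 was higher and 1 lower.

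Against E19.5, no myosin probe set met the strict rule at E10.5, where 2.18% of all did, nor at any later embryonic day. At an adjusted p under 0.05, 4 were higher at E10.5 than at E19.5, both of Myl4, Myl7 and Myl1, and 2 were lower, Myh7b and 1 of Myl3, against 21.8% and 23.7% of all. Their adjusted p ranged from 2.57e-07 to 0.0278, so Myl7, Myl1 and the brighter Myl4 missed the strict rule by their p, the dimmer Myl4 and Myh7b by their fold and Myl3 by both. The fit shares 1 estimate of spread among all 12 stages, old adults included. In old adults the SD of Myl7 was 1.87 and that of the brighter Myl4 1.69, against median stage SDs of 0.28 and 0.22. The p of these 2 probe sets between embryonic stages therefore carries the spread of the old adult arrays. Centring left 4 higher and made 4 lower. The level of the spiked hybridization controls also rose with stage, spanning 9.68 to 10.35 on the E10.5 arrays, 10.97 to 11.39 on those of E19.5 and 12.03 to 12.43 on the young adult arrays. These ranges did not overlap, so a fit with the control level as a covariate cannot fully separate it from stage. In such a fit, Myl7 and the brighter Myl4 were higher at E10.5 than at E19.5 (1.87, adjusted p = 0.0269, and 1.86, adjusted p = 0.0112). Against young adults neither passed (0.50, adjusted p = 0.757, and 0.75, adjusted p = 0.553). In that fit all 3 Myl3 probe sets met the strict rule as lower at E10.5 than in young adults (-2.42, -2.47 and -3.17, adjusted p at most 6.78e-06), which none did without the covariate.

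**Figure D2:**
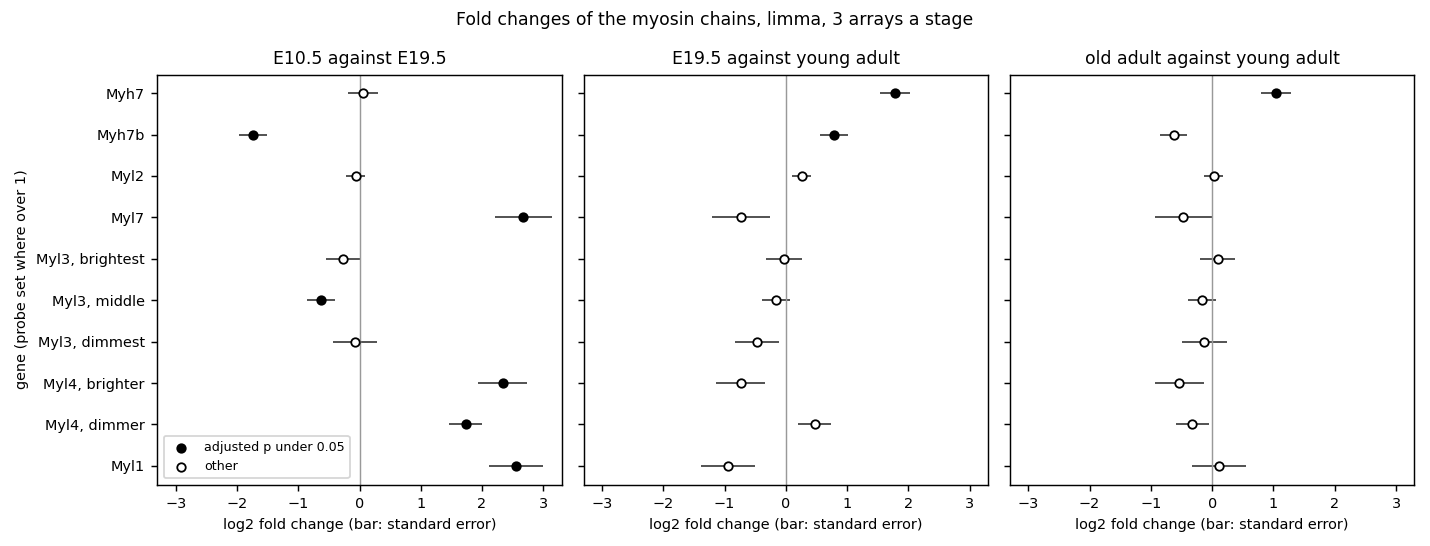
Log2 fold change (x axis, with its standard error from limma) of the 10 myosin probe sets (y axis) in 3 comparisons of 3 arrays each; filled points had an adjusted p under 0.05. At E10.5 against E19.5, 4 filled points lie to the right and 2 to the left, whereas against young adults E19.5 has 2 filled points and old adults 1.

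The daily comparisons could not place these changes on single days, nor exclude that they fell on a few. Myl1 was lower by 1.29 log2 units at E11.5 than at E10.5 (limma, adjusted p = 0.113). It was lower by 1.27 at E13.5 than at E12.5 (limma, adjusted p = 0.139), both without overlap. In the 9 comparisons of successive days, 0 of the 10 probe sets had an adjusted p under 0.05. At an unadjusted p under 0.05 there were 3 from E10.5 to E11.5, 1 from E11.5 to E12.5, 2 from E12.5 to E13.5, 1 from E14.5 to E15.5, 1 from E18.5 to E19.5 and 0 in the other 4. The share of all probe sets at this unadjusted limit is not given here, so these counts have no background to be read against. The share of all probe sets past the adjusted limit was 2.53%, 0.0976%, 1.25%, 0.0599%, 0.0377%, 0.0111%, 0.0133%, 0% and 1.33%, in order of days. The lowest adjusted p was that of Myh7b from E12.5 to E13.5 (log2 fold change 0.82, SE 0.23, adjusted p = 0.0594). Weighting arrays by their quality raised the number of probe sets and days past 0.05 from 0 to 13. The share of all probe sets under these weights is not given here, so the 13 cannot be set against a background. Whether a single-day change of a myosin passes the limit therefore depends on the fit.

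A log2 difference between 2 light chains of the same array cancels any factor that scales both alike. Only its change between stages is read here, not its level, since the 2 probe sets bind with different strength. Myl7 minus Myl2, the atrial over the ventricular regulatory chain, started at -0.48 ± 0.12 (E10.5), passed -1.84 ± 0.22 (E13.5) and -3.29 ± 0.13 (E15.5), and ended gestation at -3.22 ± 0.53 (E19.5; SD, n = 3 each). It fell by 2.53 log2 units from the 9 arrays of E10.5 to E12.5 to the 9 of E17.5 to E19.5, a fold of 5.79. The 2 windows did not overlap, and the exact permutation test gave p = 4.11e-05, the smallest it can give, and adjusted p = 0.000123 over the 9 ratio tests.

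Myl4 minus Myl3, the atrial over the ventricular essential chain, started at -0.19 ± 0.01 (E10.5), passed -1.05 ± 0.26 (E15.5) and reached -2.79 ± 0.15 (E19.5; SD, n = 3 each). Its stage mean was lower on each day than on the day before. From the early to the late window it fell by 1.98 log2 units (exact permutation p = 4.11e-05, adjusted p = 0.000123, n = 9 each), and no array of one window reached the other. Between E15.5 and E19.5 the brighter Myl4 moved by 0.76 (log2 fold change E15.5 against E19.5, adjusted p = 0.274) and the brightest Myl3 by -0.98 (adjusted p = 0.027), so the later part of this fall includes the higher Myl3 of E19.5. Whether its timing differed from that of Myl7 minus Myl2 was not tested. Myl1 minus Myl3 fell by 2.12 between the same windows, with the same p and adjusted p and again without overlap.

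**Figure D3:**
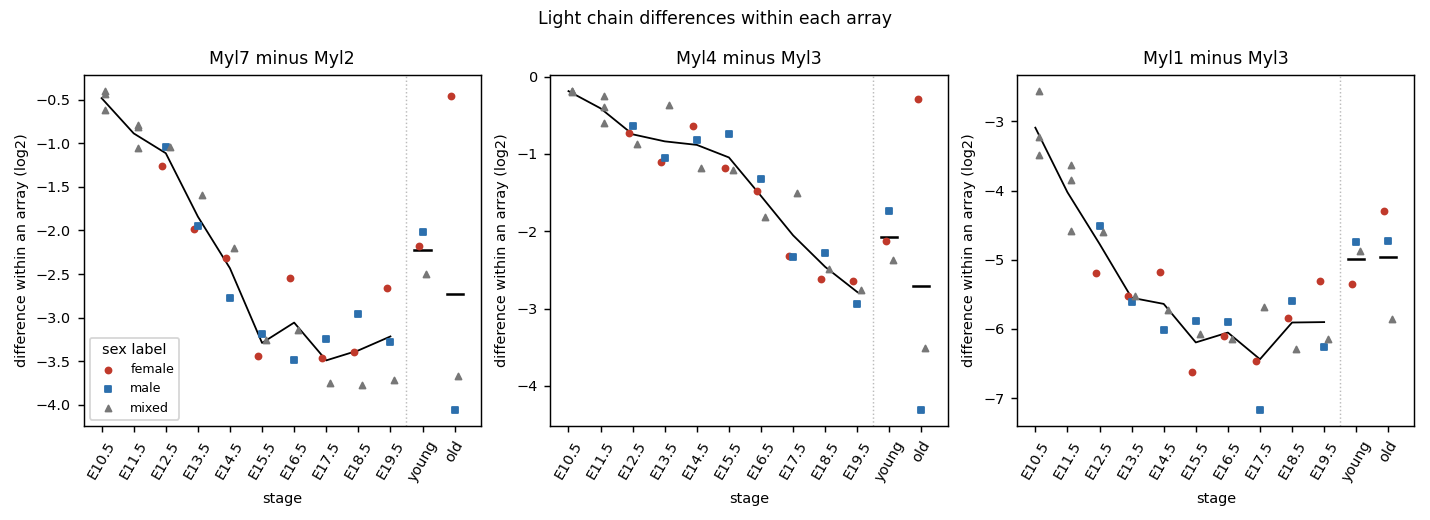
Log2 difference within each array (y axis) of Myl7 minus Myl2, Myl4 minus Myl3 and Myl1 minus Myl3 at 12 stages (x axis), 1 point per array coloured by sex label, with lines for embryonic and bars for adult means; the 3 y axes differ. All 3 differences were lower on every array of E17.5 to E19.5 than on any of E10.5 to E12.5, and the old adult female array stood 3.22 log2 units above the next old adult in the first panel.

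From late gestation to the adult, 1 of the 3 differences passed the test. Myl1 minus Myl3 was higher by 1.11 log2 units on the 6 adult arrays than on the 9 of E17.5 to E19.5 (exact permutation p = 0.0028, adjusted p = 0.00629), although the windows overlapped. Myl7 minus Myl2 was higher by 0.88 (exact permutation p = 0.0601, adjusted p = 0.108) and Myl4 minus Myl3 by 0.04 (exact permutation p = 0.935, adjusted p = 0.935), neither of which passed. In narrower windows Myl7 minus Myl2 (1.07, adjusted p = 0.0268) and Myl4 minus Myl3 (0.54, adjusted p = 0.0429) passed and Myl1 minus Myl3 (0.92, adjusted p = 0.0536) did not. Without 1 array Myl7 minus Myl2 ranged over 0.48 to 1.20. The 3 were not tested against each other. With the dimmer Myl4 probe set, Myl4 minus Myl3 reversed to -1.70 (exact permutation, adjusted p = 0.0103). Between the 3 young and 3 old adult arrays the changes were -0.50, -0.62 and 0.03, and the smallest p that 3 against 3 arrays allow is 0.1. As a description, Myh7b minus Myh7 went from -7.58 ± 0.42 (E10.5) up to -5.60 ± 0.35 (E17.5), and read -4.79 ± 0.72 in young and -6.47 ± 0.75 in old adults (SD, n = 3 each); this pair was chosen after its values were seen.

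In the old adult, the atrial chains were split between arrays. Myl7 read 12.73 on the female array, 9.46 on the male and 9.53 on the mixed array, so that the female array was 3.20 log2 units above the next and near the E10.5 range. Myl4 read 11.91, 8.91 and 9.07 on the same arrays. The young adult arrays differed among themselves by at most 0.48 in these probe sets. Over all 3 old adult arrays, neither gene differed from young adults (Myl7 -0.47, SE 0.47, adjusted p = 0.583, and Myl4 -0.54, SE 0.40, adjusted p = 0.44). Without the old adult female array, Myl7 was lower by 1.55 (limma, adjusted p = 0.0012) and Myl4 by 1.51 (limma, adjusted p = 2.86e-05), with 2 old adult arrays left. This array was singled out for its high values, so these figures describe its weight and are not a test of age.

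Other genes of atrial muscle were high on the same array. Of the 7 atrial markers listed, 6 were highest among the 6 adult arrays on the old adult female array. The share of all probe sets that were highest on it is not given here, and it was singled out for its Myl7 and Myl4 values. Sln, the sarcolipin of atrial muscle, read 11.43 there against 8.02 on the male and 7.30 on the mixed array, and 9.41, 9.83 and 9.50 in young adults. Mybphl read 7.64 against 4.25 and 4.16, and Bmp10 read 4.72 against 3.10 and 3.15. The lead was small for Nr2f2, at 8.143 against 8.136 on the mixed array, and Tbx5 read 7.23 and Nr2f1 4.97. Bmp10 and Nr2f1 stayed under the expression limit of 5 on all 6 adult arrays. The exception was Nppa, at 12.97 on the female and 13.41 on the male array. The mean of the list was 8.16 on this array, against 6.52 to 6.72 on the other old adults and 6.84 to 7.15 in young adults. The 4 ventricular markers gave means of 6.25 to 6.53 in old adults. Among the old adult arrays, Irx4 (4.06) and Mpped2 (5.13) were lowest on the female array, whereas Hey2 (3.85) and Pln (11.96) were not. How much atrial tissue each sample held is not given in the sources used here, and its part in the Myl7 and Myl4 values was not tested.

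**Figure D4:**
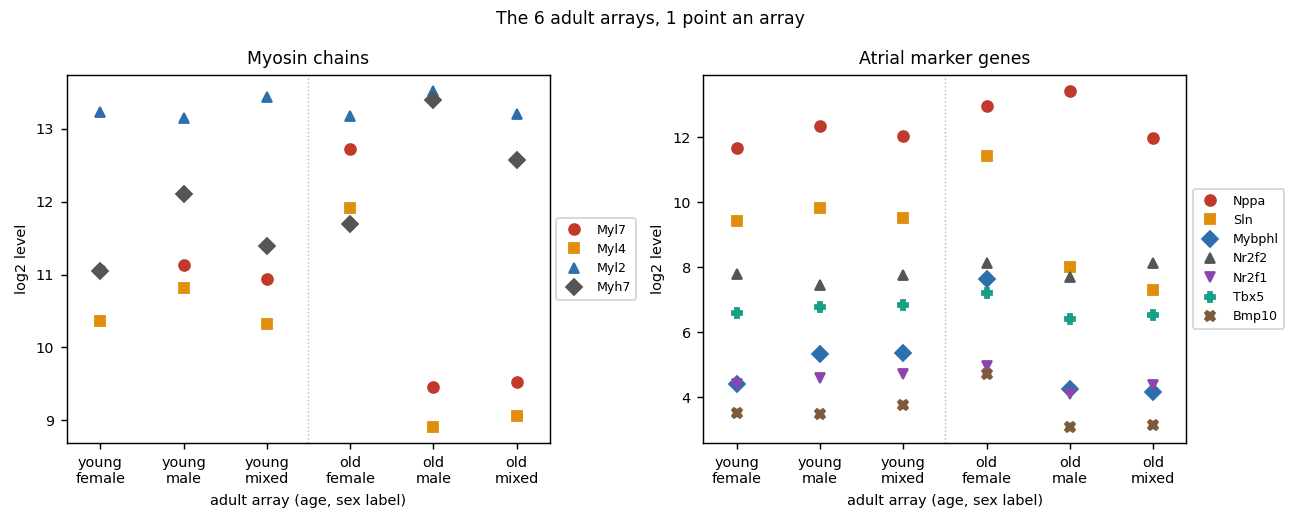
Log2 level (y axis) on the 6 adult arrays (x axis, by age and sex label) of 4 myosin chains (left) and of the 7 atrial marker genes (right), 1 point per array. On the old adult female array Myl7 reads 12.73 and Myl4 11.91, with Sln at 11.43, whereas Myl7 reads 9.46 and 9.53 on the other old adult arrays.

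Myh7 went the other way between the old adult arrays, being lowest on the female array. In young adults it was also lowest on the female array, but there Myl7 (11.13), Myl4 (10.81) and Myh7 (12.11) were all highest on the male array. Myh7 was the 1 myosin probe set of 10 with an adjusted p under 0.05 between old and young adults. It was higher in the old, against 3.83% of all probe sets that were higher and 3.13% that were lower. Its old adult range of 11.70 to 13.40 overlapped the young adult range. The difference was no longer past the limit without the old adult male array (0.62, adjusted p = 0.096), nor when the fit held the 6 adult arrays alone (1.04, adjusted p = 0.286), nor with these 6 and sex label as a block (adjusted p = 0.122). Myh7b moved down with age on average (-0.63, SE 0.23, adjusted p = 0.0833), without overlap between the groups but not past the limit. The hybridization controls also differed with age, at 11.16 to 11.56 on the old and 12.03 to 12.43 on the young adult arrays. Age and control level therefore cannot be fully separated in this comparison.

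Between the sexes, with 9 male and 9 female arrays from E13.5 on paired by stage, 0 of the 10 probe sets had an adjusted p under 0.05 in limma, nor any at an unadjusted p under 0.05, where 0.0488% of all probe sets passed the adjusted limit. Myl7 was lower in males by 0.52 on average (SE 0.27, adjusted p = 0.658), yet it was higher in the male array in 5 of the 9 pairs. Myl4 was lower in males by 0.37 and higher in 3 of the 9, and Myh7 was higher in males by 0.29 and in 4 of the 9. The means of Myl7 and Myl4 include the old adult pair, where males were lower by more than 3 log2 units.

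Other myosin chains and their partners were read from lists. The share of all probe sets that met the strict rule against young adults was 6.53% at E10.5 and 1.45% at E19.5, and the small counts of these lists are given beside it as descriptions. Of 8 other class II heavy chains with a row, 1 met the rule as higher at E10.5 than in young adults and 2 as lower, with a median log2 fold change of -0.57 against -0.19 over all probe sets. The higher one was Myh10, a non-muscle heavy chain, at 2.85. The lower ones were Myh11, the heavy chain of smooth muscle, at -5.34 and Myh14, another non-muscle chain, at -2.57. Myh11 (-2.04, adjusted p = 2.19e-07) and Myh14 (-2.07, adjusted p = 6.54e-09) also met the rule at E19.5. Of 7 other light chains, none met it at E10.5 or at E19.5, with medians of 0.09 and -0.15.

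Of 19 partners and regulators of myosin, 1 was higher and 4 were lower by the strict rule at E10.5 against young adults, with a median of -0.52. Myom2, a protein of the sarcomere's M-band, had the largest of these differences, at 2.60 at E10.5 and 11.94 in young adults. Smyd1, a methyltransferase of muscle that acts in myosin assembly, was the one that was higher, by 3.64. Mylk4, a kinase of the light chain kinase family, was the only one to meet the rule at E19.5 (-2.21, adjusted p = 5.35e-06). Of 12 genes of thyroid hormone transport and response, which includes regulators of the Myh6 and Myh7 genes, 1 met the rule at E10.5 and none at E19.5. That one was Klf9, a thyroid hormone target, with means of 6.62 (E10.5), 9.90 (E19.5) and 11.20 (young adult). Myom2, Smyd1, Klf9 and Myh10 were named after their values were seen.

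The genes whose stage means ran most like each chain were searched among 20685 probe sets with a mean above 5 in at least 1 stage, by Pearson's r over 12 stages. All genes were read on the same arrays, so the values describe likeness and carry no test. For Myh7 they were 5830469G19Rik (0.99), 6330417A16Rik (0.99) and Inpp5e (0.99), and for Myh7b Gabpb2, Dennd1a and Fam65b (0.99 each). For Myl7 they were Ube2d2a (0.99), Mettl9 (0.98) and Angpt1 (0.98), and for Myl4 Cadm1, Ywhaq and Rpl22 (0.98 each). Between E10.5 and E19.5 the mean of Angpt1 went from 8.49 down to 5.31, with 6.17 in young adults, and that of Cadm1 from 8.77 down to 5.40, with 6.20. For Myl1 they were Rps27l, Nop10 and Akirin1 (0.98 each), for Myl2 Cox6b1 (0.96), 1110059G02Rik (0.94) and Rmdn1 (0.94), and for Myl3 2010107E04Rik (0.97), Cox7a2 (0.97) and Prpf19 (0.96).

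The tissue label was checked against marker genes. Tnnt2, Ttn and Pln, genes of the cardiomyocyte, lay above 10.6 on all 36 arrays, while Actn2 spanned 9.83 to 11.64, Ryr2 7.33 to 9.26 and Myoz2 6.11 to 10.38. The liver, which the extraction text of the labels names in place of the heart, was represented by Alb, Apoa1, Ttr and Afp, none of which was above 4.54 on any array. Of the 4 ventricular markers, the transcription factors Irx4 and Hey2 were at most 5.04 and 4.38 in young adults, against at least 6.73 and 8.10 at E10.5. Mpped2 likewise read 9.89 to 10.00 at E10.5 and 6.04 to 6.71 in young adults. Pln, which also stands on the cardiomyocyte list, ran the other way, at 10.64 to 10.79 and 11.99 to 12.02.

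The atrial markers did not share 1 course over gestation. Sln lay between 3.32 and 3.73 on the E10.5 arrays and between 5.99 and 7.97 on those of E19.5. Mybphl (5.11 to 6.13, then 3.74 to 4.35), Nr2f1 (5.64 to 6.29, then 4.40 to 4.73) and Tbx5 (8.13 to 8.68, then 7.20 to 7.74) lay lower at the later stage, without overlap. Nppa (11.47 to 12.20, then 10.48 to 11.94) and Nr2f2 (7.33 to 7.62, then 7.36 to 7.90) overlapped, and Bmp10 stayed under 5.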

How the data were processed

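Poly(A) RNA of 36 mouse heart samples was measured on Affymetrix mouse arrays, and each sample was assigned to 1 of 12 stages by its label. The deposited values are log2 intensities per probe set, which the authors made by RMA (background correction, quantile normalization and summarization). The processing notes name Affymetrix Expression Console and Partek 6.6, and the methods name R. No genome build is named for the array table. Arrays have no read depth; 3 arrays a stage limit the precision, and replicates are separate tissue samples.

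The 12 stage means were fitted with limma 3.58.1 in R 4.3.3 over all 45101 probe sets, with Benjamini-Hochberg adjustment. The fit was tested on simulated data. The sex comparison used stage as a block. Ratios were tested with exact two-sided permutation tests in Python 3.11.15. The level of a gene was read from its probe set with the highest mean over 36 arrays, which also represented each listed gene. Symbols came from the file's annotation and its gene IDs.

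Members, gene lists and marker lists were chosen with earlier results of these data known. From each list, up to 4 genes met by the strict rule at E19.5 were named, and for each member the 3 genes most like it. Alternatives were another normalization, other limits, an expression filter before the model, a covariate, array weights, a sex block, fewer arrays, other probe sets and windows, and leaving out each array.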

Additional observations from a re-analysis of the deposited data

Results flagged for a closer look

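Myl7 and Myl4 changed in opposite directions with age on arrays of different sex label. From the young to the old adult female array Myl7 was higher by 1.67 log2 units and Myl4 by 1.55. From the young to the old adult male array the changes were -1.68 and -1.90. Each change is between 2 single arrays, and the difference between the sexes was not tested.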

How the results depend on the processing

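The fall of all 3 light chain differences from early to late gestation kept its direction and its side of the limit under every alternative run for them. These included another quantile normalization, other probe sets, other windows and leaving out each array. The hybridization control covariate was not applied to these differences, and centring an array cancels within them. With any 1 array left out the values were -2.62 to -2.48 for Myl7 minus Myl2, -2.10 to -1.92 for Myl4 minus Myl3 and -2.28 to -1.95 for Myl1 minus Myl3. The later changes were less stable. From late gestation to the adult, narrower windows gave 1.07 for Myl7 minus Myl2 and 0.54 for Myl4 minus Myl3, both then past the limit, and 0.92 for Myl1 minus Myl3, then not past it. Myl4 minus Myl3 reversed there to -0.028 after another quantile normalization, -0.20 with Myl3 from its dimmest probe set and -1.70 with Myl4 from its dimmer one. Leaving out 1 array gave 0.48 to 1.20, -0.38 to 0.43 and 0.97 to 1.28 for the 3 differences, and from young to old -1.64 to 0.17, -1.83 to 0.18 and -0.31 to 0.48. Myl1 minus Myl3 from young to old reversed to -0.055 after another quantile normalization.

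The 13 calls against young adults became 2 after median centring, 27 with the hybridization control covariate and 1 with the arrays of the 2 stages only, and 6 to 13 without 1 array, the lowest without the young adult female array. The 0 calls against E19.5 became 1 after another quantile normalization or median centring, 5 at a log2 limit of 1, 4 at an adjusted p limit of 0.05, 3 with the covariate, 6 with array weights and 0 to 3 without 1 array. The 0 daily changes became 1 with the filter before the model, 13 with array weights, 4 with the arrays of the 2 stages only and 0 to 3 without 1 array. The 1 change from young to old became 3 with the covariate, 0 with the arrays of the 2 stages only, 0 with the 6 adult arrays and sex block, and 0 to 3 without 1 array. The 0 changes between the sexes remained 0 without any 1 array. Apart from the arrays left out or added by a setting, the cause of these shifts was not tested. The shares of all probe sets under these alternatives are not given here, so the counts cannot be set against a background.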
